A study of Caenorhabditis elegans with 2 samples.

Results

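Autosomal coding exon peaks of UNC-39 are regions where chromatin immunoprecipitation of tagged UNC-39 gave a high signal inside protein-coding sequence. Members were chosen from the pooled peak list by their signal and their position. The authors label that list as peaks and background, from before their reproducibility threshold. A member is therefore not by itself a called binding site. A member lies off the X chromosome, has a signal of 23 or more, has its summit in coding sequence of a protein-coding gene, and lies outside every promoter, taken as 500 bp upstream to 100 bp downstream of a protein-coding transcript's 5′ end. The rule found 1149 of the 30000 pooled peaks, in 1043 genes. The autosomes held 7514 pooled peaks with a summit in coding sequence outside promoters, of which 15.3% reached the signal of 23; among all autosomal pooled peaks, whatever their position, 14.8% did. Because signal and position chose the members, their signals are given as a description and nothing is read from them.

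The study mapped UNC-39 binding by ChIP-seq in whole Caenorhabditis elegans at the L2 larval stage. All larvae were of strain OP186, of both sexes, with the unc-119 allele ed3 on chromosome III and the insertion wgIs186, which supplies UNC-39 carrying an eGFP tag. A single group of 2 biological replicates was analysed, so no comparison between conditions was possible, and no untagged or other control larvae were analysed here. Whole larvae pool every tissue, so a peak cannot be placed in a cell type, and the labels do not give the cells in which the construct was expressed.

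UNC-39 belongs to the SIX4/5 group of homeodomain proteins, which bind DNA and control transcription, and in this worm it is known to act in mesoderm and in the development and migration of neurons. Factors of this kind are usually studied at promoters, introns and intergenic regions, where they recruit the transcription machinery or modify chromatin. Coding exons differ from those regions in that their sequence is constrained by the protein they encode, and in this worm they are richer in G and C than introns.

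All pooled peaks were 364 bp wide with the summit at the centre, and the signal is the authors' own enrichment value per peak. Members ranked from 37 to 4555 in the pooled list. Their signals ran from 65 down to 23, with a median of 26 and quartiles of 24.3 and 28.5. A signal of 30 or more was reached by 199 of them (17.3%), and 14 had 40 or more. Just inside the limit were F44D12.2, R02F2.4 and Y116F11A.6, with signals of 23.0025, 23.0111 and 23.0116. Just outside it were R119.3, pod-2 and ins-2, with 22.9952, 22.9942 and 22.9898, so nothing separated the weakest members from the strongest coding exon peaks left out.

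The DNA under some of the highest members is shown, with summits in coding exons of genes with unlike functions. The set is not complete. Another member, with a signal above those of vha-13 and chc-1, is described below and its DNA is not shown. Each sequence is the 200 bp around the summit on the coding strand of the gene, written 5′ to 3′, from the RefSeq genome of WBcel235, the same assembly as ce11. Capitals mark coding bases and lower case marks intron or other flanking bases. The regions are III:835875-836074 for dos-3 (minus strand), V:15431396-15431595 for T26H5.8 (minus), II:6491788-6491987 for T28D9.11 (minus), V:18946756-18946955 for Y80D3A.8 (plus), V:14352083-14352282 for vha-13 (plus) and III:10208820-10209019 for chc-1 (plus).
dos-3: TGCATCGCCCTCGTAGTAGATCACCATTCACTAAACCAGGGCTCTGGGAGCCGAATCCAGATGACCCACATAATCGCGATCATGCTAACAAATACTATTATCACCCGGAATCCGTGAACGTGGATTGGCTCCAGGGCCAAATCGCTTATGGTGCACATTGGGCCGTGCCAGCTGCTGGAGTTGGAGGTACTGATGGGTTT
T26H5.8: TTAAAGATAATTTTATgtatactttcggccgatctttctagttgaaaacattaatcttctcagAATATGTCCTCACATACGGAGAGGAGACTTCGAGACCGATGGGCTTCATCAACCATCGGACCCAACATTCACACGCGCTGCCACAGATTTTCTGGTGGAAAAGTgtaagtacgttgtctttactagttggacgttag
T28D9.11: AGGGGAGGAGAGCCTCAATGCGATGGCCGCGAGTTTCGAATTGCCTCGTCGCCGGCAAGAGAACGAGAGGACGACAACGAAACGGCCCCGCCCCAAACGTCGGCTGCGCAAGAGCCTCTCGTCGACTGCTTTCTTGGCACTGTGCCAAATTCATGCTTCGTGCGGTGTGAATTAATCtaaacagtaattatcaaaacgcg
Y80D3A.8: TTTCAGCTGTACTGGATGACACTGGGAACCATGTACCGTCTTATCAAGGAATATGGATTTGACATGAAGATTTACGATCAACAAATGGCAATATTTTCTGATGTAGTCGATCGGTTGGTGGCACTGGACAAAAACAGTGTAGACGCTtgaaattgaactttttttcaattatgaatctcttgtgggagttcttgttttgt
vha-13: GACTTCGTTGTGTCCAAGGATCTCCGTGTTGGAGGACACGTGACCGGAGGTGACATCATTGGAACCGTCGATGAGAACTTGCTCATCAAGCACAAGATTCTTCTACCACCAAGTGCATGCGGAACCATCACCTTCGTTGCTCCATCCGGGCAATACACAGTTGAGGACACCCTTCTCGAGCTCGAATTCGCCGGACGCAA
chc-1: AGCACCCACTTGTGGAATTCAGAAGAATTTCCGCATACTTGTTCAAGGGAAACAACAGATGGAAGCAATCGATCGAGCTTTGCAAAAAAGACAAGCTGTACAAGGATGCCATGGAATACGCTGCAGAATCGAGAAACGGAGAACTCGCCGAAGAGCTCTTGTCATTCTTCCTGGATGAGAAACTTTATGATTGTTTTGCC

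The windows of dos-3, vha-13 and chc-1 were coding throughout. That of T26H5.8 held 120 coding bases, from the exon under the summit and the end of a neighbouring exon, and that of Y80D3A.8 held 147, the end of the coding sequence. In T28D9.11, whose whole coding sequence is 183 bp, 177 of the 200 bases were coding. Over all members the median window was 90.5% coding, and 499 windows (43.4%) were coding throughout. Among the 6365 autosomal coding exon peaks with a signal under 23, called the weaker coding exon peaks here, the median was 86.5% and 38.5% were coding throughout.

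The authors' thresholded list, which they made from the pooled and per-replicate lists by the irreproducible discovery rate, held 5 members, 0.435% of the 1149. Of all 30000 pooled peaks, most of them with a signal under 23, 0.467% were in that list. Of the 3602 autosomal peaks with a signal of 23 or more, 2.5% were. The list follows the same signal that chose the members, so its share is a description. At a signal of 23 or more on the autosomes, the thresholded share was 5.21% of promoter peaks (33 of 634), 4.1% of intergenic peaks (32 of 780) and 1.81% of intron peaks (17 of 937). Few members therefore had a signal as high as that of the thresholded list, although coding exons held more peaks over 23 than promoters, introns or intergenic sequence did. The share is not a measure of how well replicates agreed at coding exons, which is described below.

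The highest of the 5 lay in the last coding exon of dos-3 (III, 835793 to 836156), which encodes a protein like Delta and OSM-11, ligands of the Notch pathway. Its pooled signal was 65. Replicate 1 gave a signal of 18.9 there, rank 893 in its own list, and replicate 2 gave 43.4, rank 19. The GC content around the summit was 52%. Signals are not on a common scale between lists, so only the ranks can be set side by side, and the region stood far higher in replicate 2.

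The second lay in T26H5.8 (V, 15431314 to 15431677), a gene for a glycosyl transferase, in coding exon 6 of 11. The pooled signal was 61.5, with a signal of 32 and rank 34 in replicate 1 and a signal of 23.3 and rank 244 in replicate 2. Another member, with a pooled signal of 28.3, lay 560 bp away in exon 3 of the same gene. T28D9.11 (II, 6491706 to 6492069), a short gene with 1 coding exon for an uncharacterized protein, had a pooled signal of 51.9, rank 47 in replicate 1 and rank 350 in replicate 2. Its summit was 105 bp downstream of the gene's own 5′ end, only just outside the promoter window. Both regions were near the top of each replicate's list.

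Y80D3A.8 (V, 18946674 to 18947037) encodes a protein-tyrosine-phosphatase, an enzyme that removes phosphate from tyrosines. It had a pooled signal of 46.5 and ranks of 98 and 922, with the summit at 98.8% of the coding sequence. Of the 36-base words in its window, 26.1% occurred at more than 1 place in the genome. Y18D10A.4 (I, 12815953 to 12816316), which encodes an uncharacterized protein, had a pooled signal of 46 but signals of only 12.4 and 11.1 in the replicates, ranks 8288 and 7200. It was the only thresholded member outside the first 1000 rows of both replicate lists. The lowest signal in the thresholded list was 45.9. On the autosomes 90 pooled peaks reached it, as many as were in that list, and the pooled signal of Y18D10A.4 lay just above it. Why its ranks in the replicate lists were so much lower was not tested. The window of Y18D10A.4 is not among those printed above. It held the GA repeat GAGAGAGA, the triplet repeat CAGCAGCAG and a tandem repeat of 12 bp.

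Below the thresholded list, the 20 next members had signals from 45.4 to 37.5 and came from genes of varied function. Membrane traffic and transport were represented by vha-13, the catalytic subunit A of the vacuolar proton pump, by chc-1, the clathrin heavy chain, and by hmit-1.2, a proton-coupled inositol transporter. At vha-13 the pooled signal was 45.4, with rank 620 in replicate 1 and 179 in replicate 2. At chc-1 it was 44, with ranks 217 and 416. At hmit-1.2 it was 42.5, with rank 168 in replicate 1 and no summit within 100 bp in replicate 2. Both replicates thus ranked vha-13 and chc-1 within their first 1000 rows. At hmit-1.2 the nearest summit of replicate 2 lay 143 bp away, outside the match distance. Below, a rank in 1 replicate only means that the other list had no summit within 100 bp.

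Metabolic enzymes among them were icl-1, the malate synthase and isocitrate lyase of the glyoxylate cycle (signal 40.8, ranks 1019 and 464), and the aminopeptidase gene F49B2.6 (37.5, ranks 166 and 4508). The mitochondrial elongation factor gene tufm-1 (38.1) ranked 215 in replicate 1 and 7046 in replicate 2. Cytoskeleton, adhesion and polarity genes were inft-2, which encodes a formin-homology protein (43.1, rank 378 in replicate 1 only), mua-3, the adhesion receptor that anchors muscle through the epidermis (40.7, rank 731 in replicate 2 only), and par-1, a polarity kinase (39.2, rank 345 in replicate 1 only). The condensin gene smc-4 had a signal of 40.3 and ranks of 627 and 828. The nearest summit of the other replicate lay 138 bp away at inft-2, 106 bp at mua-3 and 110 bp at par-1. By summits within 100 bp, smc-4 alone of these 7 genes ranked within 1000 in both lists.

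Genes of the nervous system and sensing were snt-4, a synaptotagmin-like gene (38.4, rank 593 in replicate 2 only), and the serpentine receptor gene srh-71 (38.6, rank 132 in replicate 1 only). Regulatory and other protein domains came from W06H8.6, with a bHLH domain (40.2, ranks 1830 and 848), K07H8.9, with a KH domain of RNA-binding proteins (38.5, ranks 23196 and 140), B0205.9, with an SPK domain (37.9, rank 1659 in replicate 2 only), and the F-box gene fbxb-61 (41.9, ranks 61 and 4136). The remaining 4 were Y69H2.3, a follistatin-like gene (39.5, ranks 1422 and 170), F01D5.6 (38.8, ranks 154 and 3539), F53F8.4 (38.2, ranks 251 and 3669) and the transposase gene Y75B12B.3 (37.8, ranks 5922 and 347). The nearest summit of the other replicate lay 153 bp away at snt-4, 176 bp at srh-71 and 174 bp at B0205.9. By summits within 100 bp, both replicates ranked none of these 10 genes within their first 1000 rows.

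Over the 25 highest members, 22 had a summit in replicate 1 within 100 bp, 21 in replicate 2 and 18 in both. Only 7 ranked within 1000 in both lists: dos-3, T26H5.8, T28D9.11, Y80D3A.8, vha-13, chc-1 and smc-4. Chromosome V held 12 of the 25, against 26.1% of all members. The median coding exon was 276 bp and the median GC content 44%, and 8 of the 25 had a GC content of 50% or more.

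**Figure D1:**
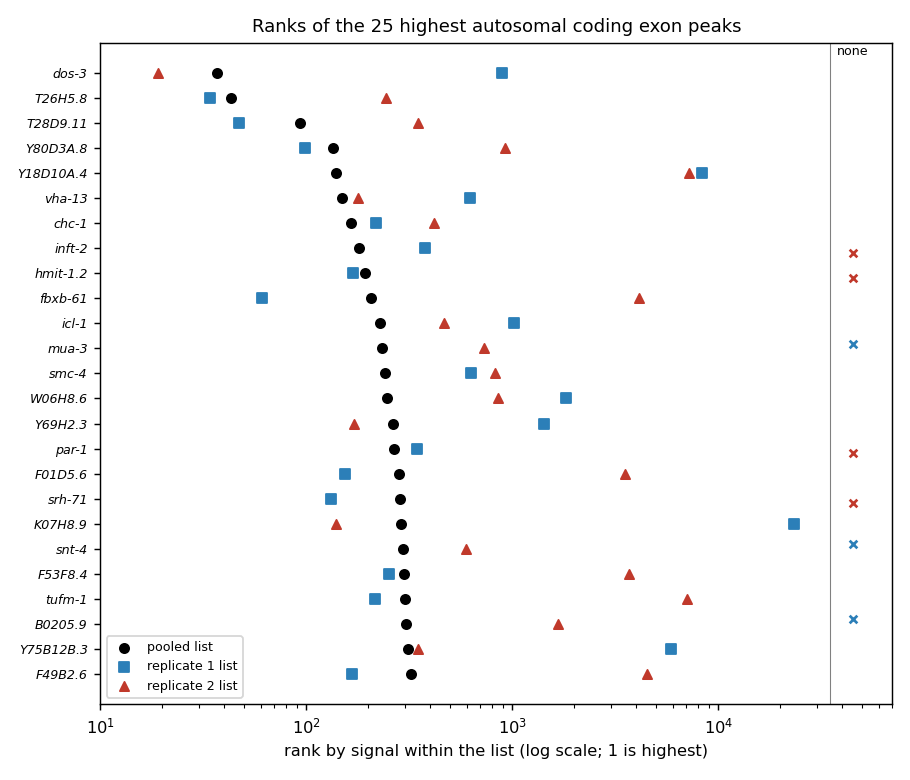
Rank by signal (log scale, 1 is highest) of the 25 highest members in the pooled list (black), the list of replicate 1 (blue squares) and that of replicate 2 (red triangles), with crosses at the right for a list with no summit within 100 bp. The replicate ranks of most genes lie far apart, and 7 of the 25 have both below 1000.

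Several members shared a gene at 89 of the 1043 genes, which held 195 members between them. Some of these were overlapping peaks, with summits closer than the peak width of 364 bp. The summits lay 199 bp apart in tgt-2 and C24B5.4, 202 in osg-1, 213 in pqn-31 and 242 in acdh-8 and B0035.13. The 89 genes were long, with a median coding sequence of 3270 bp, against 1435.5 bp for the 954 genes with 1 member and 1317 bp for the 4419 genes whose coding exon peaks were all weaker. Of the 5462 genes with any autosomal coding exon peak, 19.1% held a member. The share of a gene's coding exon peaks that were members depended little on length: 14.7% under 1000 bp of coding sequence, 15.2% from 1000 to 2000 bp, 15.7% to 4000 bp, 16.2% to 8000 bp and 14.9% above. Longer genes held more peaks of both kinds.

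At least 3 members were found in 14 genes. With 4 members each were ttn-1, the giant titin-like protein of muscle, unc-68, the ryanodine receptor that releases calcium for contraction, and ubr-4, which has a UBR domain of ubiquitin ligases. The signals were 37.3, 28.5, 25 and 25 in ttn-1, over a coding sequence of 45564 bp with 15 coding exon peaks in all. In ubr-4 they were 30.5, 27, 23.1 and 23.1, among 7 coding exon peaks, and in unc-68 26, 25.5, 25.4 and 23.6, among 8. The coding sequence of unc-68 was 15606 bp and that of ubr-4 12654 bp. Only 1 of the 4 members of ttn-1, 1 of ubr-4 and 2 of unc-68 had summits within 100 bp in both replicate lists. The ttn-1 members at 28.5 and 25 (V, 6146901 to 6147264 and 6147126 to 6147489) were overlapping peaks. Their nearest replicate 2 summits lay 118 and 107 bp away, just outside the match distance.

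The members of chc-1 lay closer together, 3 of its 4 coding exon peaks within 1229 bp, with signals of 44, 28.2 and 23.1. In icl-1, 3 of 5 coding exon peaks were members, with signals of 40.8, 24.2 and 24.1 within 2072 bp. In K08E7.5, a mucin-like gene, all 3 were members (31.6, 27.1 and 24.1, within 1977 bp). The spectrin beta gene unc-70 held 3 of 4 (35.3, 34 and 24.2), slo-1, the calcium-activated potassium channel, 3 of 4 (28.8, 25.2 and 24.9), and the Kunitz-domain gene Y43F8B.3 3 of 4 (35.9, 29.4 and 24.8). The other 5 genes with 3 members were F55F10.1, a midasin gene, unc-52, the perlecan of basement membranes, bltp-2, pod-2, which encodes acetyl-CoA carboxylase, and the spectraplakin gene vab-10. Both replicate lists had a summit within 100 bp at 1 of the 3 members in chc-1, unc-70, slo-1 and bltp-2. The number was 2 in icl-1, K08E7.5, Y43F8B.3, unc-52, pod-2 and vab-10, and 0 in F55F10.1. At the slo-1 members of 25.2 and 24.9 neither list had one. Neighbouring peaks were the exception: another pooled peak with a signal of 23 or more lay within 1000 bp of 9.05% of members, of 7.26% of weaker coding exon peaks, and of 9.62% of promoter, 12.2% of intron and 5.9% of intergenic peaks of 23 or more.

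Lists of genes by function, 24 in all, were used to describe which genes held members, each read against the 15.3% of all autosomal coding exon peaks that were members. Together 121 genes of 18 lists held 151 members. Muscle structure had the most members of any list: in the sarcomere and muscle attachment list, 20 of 87 coding exon peaks were members (23%), in 9 of 19 genes. The median signal of its coding exon peaks was 18.3, against 17.2 over all autosomal coding exon peaks. Other lists had higher medians, among them ribosomal protein genes (20.1), actin and tubulin genes (19.5) and basement membrane genes (18.7). Shares as high were found, from fewer peaks, in actin and tubulin genes (25%) and heterochronic genes (23.1%). Besides ttn-1, unc-52 and unc-68 these were deb-1, the vinculin of muscle attachments (29.5 and 23.1), the myosin heavy chain genes myo-3 (28.6) and myo-1 (24.1), unc-89, the M-line protein obscurin (27.3 and 25.1), unc-22, twitchin (25.2 and 23.1), and pat-6, parvin (24.8). Long genes with several peaks each make up much of this list, and 11 of its 20 members lay in ttn-1, unc-52 and unc-68.

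In the spectrin, plakin and large cytoskeleton list, 13 of 84 peaks were members (15.5%), close to the background share. The highest were mua-3 (40.7), unc-70 (35.3), fln-1, filamin (32.7), and mup-4, a matrix receptor of the epidermis (30.9). Among basement membrane and matrix genes 11 of 62 were members (17.7%), including the laminin alpha gene epi-1 (36.4 and 31.8), the type IV collagen gene emb-9 (33.4 and 32.8), and dig-1 (30.6). At epi-1 the higher member ranked 1118 in replicate 1 and 887 in replicate 2. Actin and tubulin genes had 2 of 8, in the alpha-tubulin genes mec-12 (25.8) and tba-7 (25.6).

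Cuticle collagens, which form the worm's exoskeleton, had 15 members among 72 coding exon peaks (20.8%), in 15 of 63 genes. The highest were col-36 (36.9), col-128 (33), col-39 (32.2) and sqt-2 (30.4). The col-36 peak ranked 498 in replicate 1 and 18100 in replicate 2. Other proteins of the cuticle and apical matrix had 17 of 111 (15.3%), at the background share, led by qua-1 (31.5), dex-1 (31.3) and grl-2 (30.4). Vitellogenin and lipid genes had 8 of 35 (22.9%), with the fatty acid desaturase gene fat-2 at 37.4, the yolk protein gene vit-6 at 31.8 and 27.1, and 3 members in pod-2. Ribosomal protein genes had 3 of 16 (18.8%), rps-24 (29.3), rps-7 (27.2) and rpl-35 (24.7), and translation and RNA factors 7 of 44 (15.9%).

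Among nuclear hormone receptors, a large family of ligand-controlled transcription factors, 13 coding exon peaks were members, 11.6% of those in the family, with nhr-117 highest at 30.7 and including nhr-23 (28.4), which controls molting, and nhr-49 (28.3), which controls fat metabolism. Synaptic, neuropeptide and channel genes had 7 of 72 (9.72%), in unc-51, slo-1, cho-1 and ida-1. Chromatin and dosage compensation genes had 5 of 41 (12.2%), nurf-1 (34.9), cbp-1 (31.8 and 26.1), sdc-3 (28.2) and dpy-26 (27.4). Heat shock and stress genes had 6 of 47 (12.8%), and germline genes 3 of 26 (11.5%), puf-5, pgl-1 and gld-2. Migration, guidance and Wnt genes had 9 of 51 (17.6%), led by ced-12 (31.3), cam-1 (30.8) and plx-2 (30.7). Nucleoporin and nuclear envelope genes had 7 of 35 (20%), led by lem-3 (34.5) and npp-7 (33.3), and heterochronic genes 3 of 13 (23.1%), in sea-2 and nhl-2.

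No member lay in SIX-family genes, their EYA partners and mesoderm regulators, whose 8 coding exon peaks had a highest signal of 16.1. With 0 of 8, a true share as high as 37.5% is possible. Homeobox genes named ceh had 0 of 17 (upper limit 17.6%), coelomocyte and scavenger genes 0 of 9 (33.3%) and histone genes 0 of 5 (60%). Hox genes and cofactors had 3 peaks, the highest at 22.9, and major sperm protein genes had 2. Among neuron fate transcription factors 2 of 11 were members, daf-19 (26.7), the RFX factor of ciliated neurons, and cog-1 (25). All of these upper limits are above the background of 15.3%, so a lower share than the background was not detectable in these lists.

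Members were spread over the whole length of coding sequences. The summit lay at a median of 53.1% of the coding sequence, and 5 equal stretches from start to end held 12.2%, 23.3%, 21.8%, 23.6% and 19.1% of members. For weaker coding exon peaks the median was 52.7% and the stretches held 15%, 21.8%, 21.5%, 22.1% and 19.7%. The first stretch held the fewest in both sets, and the promoter window, which the rule leaves out, covers part of it. The first coding exon held 7.66% of members and the last 16.5%. Genes on the plus strand held 51.7%. The nearest protein-coding 5′ end was a median of 1183 bp away.

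The exon that held the summit had a median length of 341 bp (quartiles 200 and 629), against 311 bp (183 and 555) for weaker coding exon peaks, and 126 members (11%) lay in exons of 1000 bp or more, against 8.45%. The summit was a median of 83 bp from the nearest exon edge, and 13.7% lay within 20 bp of one. In 84 cases (7.31%) the summit was noncoding in another transcript of the gene. Of the 1043 genes with a member, 57 (5.47%) also had a peak of 23 or more at their own promoter, as had 214 of the 4419 genes with weaker coding exon peaks only (4.84%). A high promoter peak on the same gene was thus about as frequent in both sets of genes. The share over all genes was not computed, so whether either share is low cannot be said.

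The share of coding exon peaks that were members was higher in longer exons, going from 12.8% under 150 bp to 14.7%, 15.4%, 17.1% and, at 1200 bp or more, 19.3%. Over the GC content of the 200 bp around the summit it went from 8.72% under 35% GC through 12.7%, 16.7%, 17.6% and 19.8% to 25.7% at 55% GC or more. Long exons were also richer in G and C, and within bands of GC content the relation to exon length was uneven. Under 40% GC the shares were 10.4%, 14.1% and 11.8% for exons under 300 bp, of 300 to 600 bp and longer. From 40 to 45% they were 17.3%, 12.7% and 20.3%, and at 45% or more 19%, 19.1% and 18.9%. At 45% GC or more the 3 shares were nearly equal.

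The same relation to GC content was seen in each replicate's own list when its highest 4556 rows were taken, as many as the pooled list has at 23 or more. In replicate 1 the share of coding exon peaks among those rows was 9.88% under 35% GC and 24% at 55% or more. In replicate 2 it was 12.2% and 22.9%, with the highest value, 23.3%, between 50 and 55%. It was not limited to coding exons. Among autosomal peaks at other positions, the pooled share was 7.53% under 35% GC and 46% at 55% or more, a steeper slope than in coding exons. GC content can also move how evenly fragments are amplified and sequenced, and its part in these signals was not tested.

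**Figure D2:**
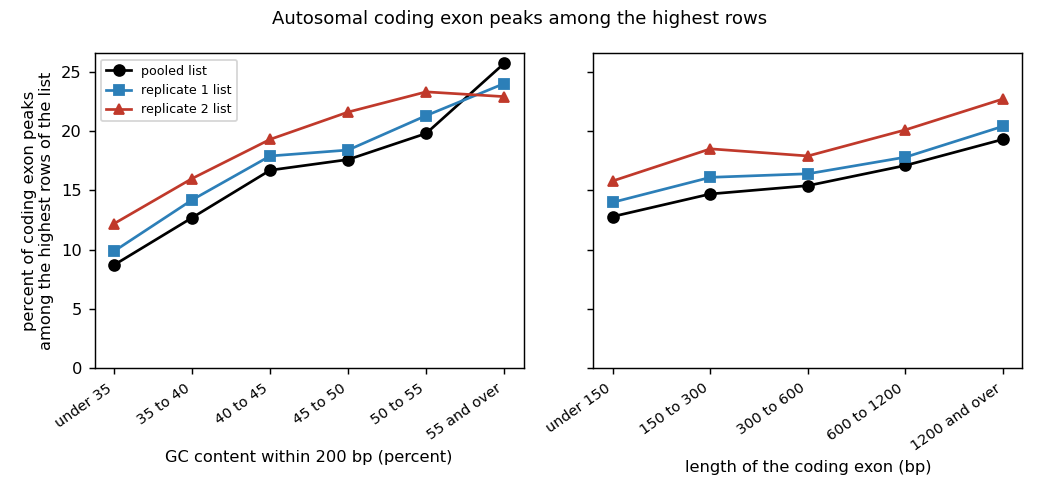
Percent of autosomal coding exon peaks that are among the highest rows of the pooled list (black), replicate 1 (blue) and replicate 2 (red), by GC content within 200 bp (left, percent) and by length of the coding exon (right, bp). The pooled share goes from 8.72% to 25.7% over the GC bins and from 12.8% to 19.3% over the exon bins.

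Median GC content was 42.5% around members (quartiles 39 and 47.5), 41% around weaker coding exon peaks and 38.5% around all pooled peaks. At a signal of 23 or more it was 41.5% at promoter, 40.5% at intron and 41% at intergenic peaks. Members thus had the highest median of these autosomal and pooled sets, but their quartiles overlapped with those of every other. Coding exon peaks of 23 or more on X had a slightly higher median, 43% (quartiles 39.5 and 46).

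Simple repeats were found around fewer members than around peaks of like signal at other positions. The search covered either strand within 100 bp of each summit, and a match is a description of the letters only. The GA repeat GAGAGAGA was in 7 members (0.609%) and in 0.66% of weaker coding exon peaks, but in 7.26% of promoter, 5.55% of intron and 8.72% of intergenic peaks of 23 or more, and in 2.46% of all pooled peaks. The CA repeat CACACACA was in 0.522% of members, and in 3.79%, 5.34% and 6.28% of the promoter, intron and intergenic peaks. A block of T, TTTTTTTT, was in 5.48% of members, against 12.8%, 14.6% and 15%. For all 3 repeats the shares were close to those of the weaker coding exon peaks (0.66%, 0.393% and 6.65%).

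The 7 members with the GA repeat were Y18D10A.4 (signal 46), Y37E3.1 (35.3), sma-4 (30.3), ccar-1 (27.5), Y39A1A.10 (26.9), C47E8.3 (24.8) and math-4 (23.2). The repeat lay wholly in coding bases in 5 of them and outside coding bases in sma-4 and C47E8.3. Y37E3.1 ranked 824 and 1357 in the replicates, sma-4, a Smad transducer of TGF-beta signals, 3351 and 1946, and Y39A1A.10 3682 and 3556. C47E8.3, ccar-1 and math-4 had a summit in only 1 replicate list each.

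Windows from sma-4 (III:5818334-5818533, plus strand) and Y39A1A.10 (III:10632795-10632994, plus strand) show a GA repeat beside an exon and one inside it. Capitals mark the repeat, which reads as CT on the printed strand of sma-4.
sma-4: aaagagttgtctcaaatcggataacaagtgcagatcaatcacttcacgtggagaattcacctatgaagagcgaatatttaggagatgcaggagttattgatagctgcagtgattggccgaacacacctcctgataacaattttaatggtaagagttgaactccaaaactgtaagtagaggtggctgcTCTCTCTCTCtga
Y39A1A.10: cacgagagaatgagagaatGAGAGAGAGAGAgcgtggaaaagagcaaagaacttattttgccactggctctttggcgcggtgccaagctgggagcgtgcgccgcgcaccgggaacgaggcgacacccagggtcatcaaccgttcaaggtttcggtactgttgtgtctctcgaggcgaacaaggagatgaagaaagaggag

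Longer tandem repeats and triplet repeats, which keep the reading frame, were searched as well. A tandem repeat of 12 bp or more, of units of 2 or 3 bases and so not only of triplets, was in 32 members (2.79%), in 2.18% of weaker coding exon peaks and in 7.1%, 8.96% and 10.4% of promoter, intron and intergenic peaks of 23 or more. The triplet repeat GAAGAAGAA was in 3.31% of members and 2.09% of weaker coding exon peaks, and in 4.1%, 4.16% and 5.38% of the other 3 sets in that order. CAGCAGCAG was in 0.87% and 0.943%, and in 1.26%, 0.427% and 1.03%. CCACCACCA was in 1.31% and 1.24%, and in 1.1%, 0.961% and 0.769%, and GGAGGAGGA in 0.783% and 0.676%, and in 0.946%, 0.427% and 1.54%. Of these 4 triplets, members had the highest share of the 5 sets for CCACCACCA only. The longest runs were 21 bp in F53F1.4 (signal 27.2) and 18 bp in the zinc finger gene ztf-29 (30), in the synaptonemal complex gene syp-4 (29.2) and in Y24D9A.6 (28).

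Windows from F53F1.4 (V:13411287-13411486, plus strand) and ztf-29 (III:11561585-11561784, plus strand) show such runs, in capitals, all of whose bases are coding.
F53F1.4: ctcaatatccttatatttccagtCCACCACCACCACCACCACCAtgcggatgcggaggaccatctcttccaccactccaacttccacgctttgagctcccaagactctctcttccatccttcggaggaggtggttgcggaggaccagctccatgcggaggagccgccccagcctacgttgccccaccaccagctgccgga
ztf-29: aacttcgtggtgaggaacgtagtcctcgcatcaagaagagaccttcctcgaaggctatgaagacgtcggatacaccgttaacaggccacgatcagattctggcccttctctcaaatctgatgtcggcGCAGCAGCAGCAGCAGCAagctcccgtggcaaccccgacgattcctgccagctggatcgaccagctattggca

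The SIX-family core TGATAC was in 84 members (7.31%), in 7.82% of weaker coding exon peaks and in 6.69% of all pooled peaks, and the fly Six4 core TGACAC in 8.36%, 8.26% and 8.17%. In promoter, intron and intergenic peaks of 23 or more the shares were 6.15%, 6.51% and 4.36% for TGATAC and 9.62%, 8.86% and 8.08% for TGACAC. Both shares in members were close to those of the weaker coding exon peaks and of all pooled peaks. The GATA factor site TGATAA was in 16.1% of members, 17% of weaker coding exon peaks and 11.5%, 10.5% and 11.7% of promoter, intron and intergenic peaks of 23 or more. The ETS site CCGGAA was in 9.14% of members, 8.86% of weaker coding exon peaks, 5.21%, 8.86% and 8.59% of the other 3 sets and 8.47% of all pooled peaks, so the promoter peaks alone were far from the members. E-boxes are the sites of bHLH factors. CAGCTG was in 8.36% of members, against 7.12% of weaker coding exon peaks and 4.1%, 4.8% and 5.38% of the other 3 sets. CACGTG was in 6.79%, against 5.17%, 5.99%, 4.59% and 4.62%. At 23 or more, autosomal noncoding exon peaks had shares of 3.92% for CAGCTG and 6.86% for CACGTG. Coding exon peaks on X had 6.64% and 2.49%. The hexamers AGGGAG and CGCGCA are parts of the word that marks recruitment sites of the dosage compensation complex on X. They were in 4.79% and 2.09% of members, close to the 4.56% and 1.71% of weaker coding exon peaks. In all pooled peaks they were in 5.37% and 3.57%. At 23 or more the shares were 10.6% and 9.31% of promoter, 7.58% and 6.19% of intron and 10% and 4.74% of intergenic peaks. No pattern reached 1 in 5 members.

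**Figure D3:**
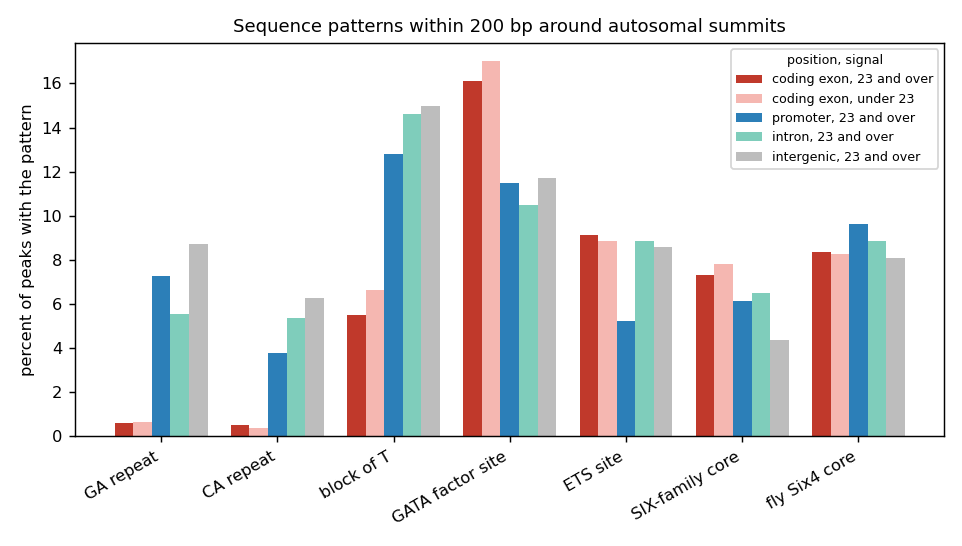
Percent of autosomal peaks with each sequence pattern on either strand of the 200 bp around the summit, for coding exon peaks with a signal of 23 and over (red) and under 23 (pink), and for promoter (dark blue), intron (green) and intergenic (grey) peaks of 23 and over. The GA repeat is in 0.609% and 0.66% of the coding exon sets and in 5.55% to 8.72% of the others.

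Sequence that occurs more than once in the genome was uncommon under members. A 36-base word with a second copy was found in 29 windows (2.52%), against 3.86% of weaker coding exon peaks and 4.89%, 7.36% and 7.05% of promoter, intron and intergenic peaks of 23 or more. The largest share of such words was in M04C3.2 (46.7%), then fbxa-133 (28.5%), Y80D3A.8 (26.1%) and ssq-2 (25.5%), a sperm-specific gene. At these peaks reads could come from another copy of the sequence. The lower-case bases of the genome file, masked as repeats, made up a median of 9.5% of the window in members. The median was 11% at weaker coding exon peaks, 10% at X coding exon peaks of 23 or more, and 20% to 21% at the promoter, intron and intergenic peaks. A tRNA, snRNA, snoRNA or rRNA gene lay within 200 bp of 10 members (0.87%), against 0.267% of weaker coding exon peaks and 1.18% of all pooled peaks. Inside a gene annotated as other than protein-coding lay 4 members (0.348%), against 0.314% and 5.34% of those sets in that order.

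Coding exons were a smaller share of autosomal peaks at the highest signals than below them. They held 5 of the 90 autosomal peaks in the thresholded range (5.56%, exact 95% interval 1.83 to 12.5) and 9 of the next 76, down to a signal of 40 (11.8%, 5.56 to 21.3). From 35 to 40 the share was 25.3% (43 of 170, 19 to 32.5), from 30 to 35 it was 30% (25.9 to 34.4), and from 26 to 30 it was 36.9% (383 of 1039, 33.9 to 39.9). It was 32.3% from 23 to 26, and under 17 it was 29.7%. Promoter peaks went the other way, from 15.6% under 17 to 36.7% in the thresholded range. The intervals cover counting error over peaks only. Signal and position are what the rule used, so these shares are a description.

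**Figure D4:**
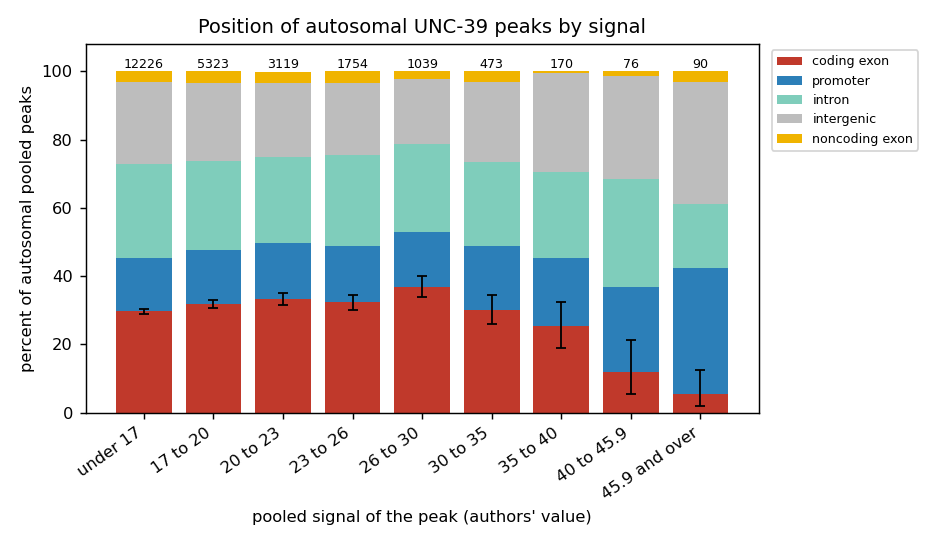
Percent of autosomal pooled peaks by position of the summit (stacked colours) in tiers of pooled signal, with the number of peaks above each bar and the exact 95% interval of the coding exon share in black. The coding exon share is 29.7% under 17, 36.9% from 26 to 30 and 5.56% in the highest tier.

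Measured per length, the order depended on the signal. Coding exons outside promoters covered 18.9 Mb, 22.8% of the autosomes, and held 61 peaks of 23 or more per Mb, against 52.2 in promoters, 36.7 in introns and 33.4 between genes. For all pooled peaks the densities were 399, 320, 254 and 241 per Mb. For thresholded peaks they were 0.265 per Mb in coding exons, 2.72 in promoters, 0.666 in introns and 1.37 between genes. Coding exons thus had the highest density of peaks of 23 or more and the lowest density of thresholded ones.

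Autosomes differed little. Chromosomes I, II, III, IV and V held 207, 228, 212, 202 and 300 members, which were 14.5%, 15.7%, 16.3%, 14.7% and 15.3% of their coding exon peaks. On X, outside the members, 241 coding exon peaks reached 23, 17.1% of those there, and 2 of them (0.83%) were in the thresholded list. The median signal was between 25.8 and 26.2 on each of the 6 chromosomes.

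Replicate lists were the only measurement by sample. The depth of each library is unknown because the lists hold no read counts. Replicate 1's list had 30000 rows and replicate 2's had 24978. A summit of replicate 1 lay within 100 bp of 951 members (82.8%), and one of replicate 2 of 869 (75.6%). Both lists had one at 691 members (60.1%), replicate 1 alone at 260, replicate 2 alone at 178 and neither at 20. Among all pooled peaks both lists had a summit at 19%. At a signal of 23 or more the share was 62.6% of promoter, 59.2% of intron and 62.8% of intergenic peaks, and among weaker coding exon peaks it was 12%. Presence in both lists went with the pooled signal, which includes the reads of both replicates, and differed little between positions.

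Agreement on the highest rows was less. Of the 1149 members, 9.75% were within the highest 4556 rows of both lists, 393 (34.2%) of replicate 1 only, 337 (29.3%) of replicate 2 only and 307 (26.7%) of neither. At promoter, intron and intergenic peaks of 23 or more, 14.7%, 12.6% and 13.7% were within those rows of both. The median rank of members was 4048 in replicate 1 and 4305 in replicate 2, over the members each list had. Across the 691 members in both lists the 2 signals had a Spearman correlation of -0.284, a description across peaks that share libraries. For promoter, intron and intergenic peaks of 23 or more it was 0.0178, -0.11 and -0.0779. These peaks were chosen by a pooled signal that holds both replicates, which constrains the correlation, so nothing is read from its sign.

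**Figure D5:**
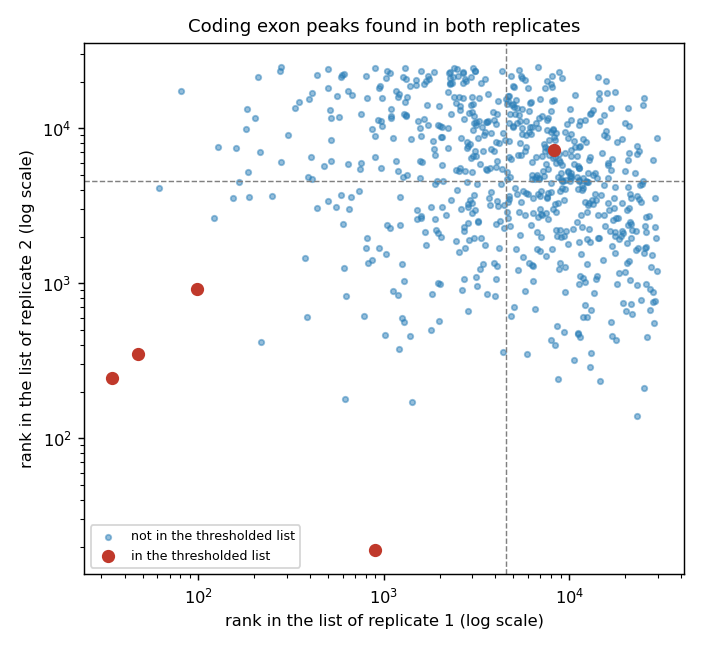
Rank in the list of replicate 1 (x axis) and of replicate 2 (y axis), both on log scales with 1 the highest, for the 691 members with a summit in both lists, with thresholded members in red and dashed lines at row 4556. Members high in both lists, at the lower left, are few, and 4 of the 5 thresholded members are among them.

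Chosen by each replicate alone, the coding exon peaks of the highest 4556 rows were largely different regions. Replicate 1 gave 1161 on the autosomes, 32.1% of its autosomal peaks in those rows, and replicate 2 gave 1181, 32.9%. In the lower rows the coding exon share was 28.8% and 31.5%. Of replicate 1's 1161, 106 (9.13%) had a summit within 100 bp among the highest 4556 rows of replicate 2, and of replicate 2's 1181, 9.48% had one among those of replicate 1. For promoter peaks the shares were 16% and 13.7%, for intron peaks 11.9% and 13.1%, and for intergenic peaks 13.2% and 13.9%. Members lay at 472 of replicate 1's peaks (40.7% of these and 41.1% of members) and at 418 of replicate 2's (35.4% and 36.4%).

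Among coding exon peaks, presence in both lists went with signal, from 3.08% under 17 and 14.9% from 17 to 20 to 38.4% from 20 to 23, 53.3% from 23 to 26, 59% from 26 to 30 and 83.1% from 30 to 35. It was 79.1% from 35 to 40, 66.7% (6 of 9) from 40 to the thresholded range and 5 of 5 within it. Autosomal peaks at other positions had 2.93%, 16.5%, 36.3%, 50.1%, 64%, 75.2%, 85%, 82.1% and 84.7% in the same tiers. The series were alike in coding exons and elsewhere, apart from the tier of 40 and over, where the coding exon share rests on 9 peaks.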

How the data were processed

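The authors performed ChIP-seq on 2 biological replicates, which form 1 group. Peak lists on ce11 were deposited for each replicate and for both pooled, with a thresholded list; per the file listings, the authors called peaks with a control alignment, which was not analysed here. The signal is the authors' enrichment value as deposited. The deposited ninth-column score is below 0 for 28734 pooled peaks and was not used. Which aligner and caller were used is not given in the sources used here.

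Positions came from Ensembl release 115 and sequence from the RefSeq genome, both WBcel235, the assembly also called ce11; as a check, 31786 of 31865 coding transcripts (99.8%) began with ATG. Product names came from RefSeq and matched 207 of 208 named genes. Summits within 100 bp were matched. Python 3.11.15, numpy 2.4.6, pandas 2.3.3 and scipy 1.17.1 were used, and the functions were tested on simulated data. Intervals are exact Clopper-Pearson at 95% and the upper limit for a count of 0 is 3 counts over the total. Neither covers more than counting error, and peaks are not independent replicates. No p-values were computed. Depth is unknown.

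Members, gene lists and patterns were chosen with earlier results of these data known. Named are genes holding the 25 highest members, genes with 2 or more members, list genes with a member, and peaks next to the limit; Y37E3.1, ccar-1, Y39A1A.10, C47E8.3, F53F1.4, ztf-29 and others with the longest repeats or most repeated words were named for that property after it was seen. Alternatives changed the signal limit, promoter, window, match distance and word length, and took each replicate alone.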

Additional observations from a re-analysis of the deposited data

How the results depend on the processing

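Of 38 alternative values, 22 stayed within the limits set for each result and 16 moved. With a signal limit of 20 there were 2186 members, of which 49.8% were in both replicate lists, with a median GC content of 42% and 227 list genes; with 26 there were 582 members, 66.8% in both lists, a GC content of 43%, a median exon of 362 bp and 76 list genes. Matching within 50 bp put 40.9% of members in both lists, and within 200 bp 75.5%. GC content was 44% in 100 bp and 41.8% over the full peak. Windows with a repeated word were 0.957% with words of 50 bases. Taking 1 replicate's highest rows in place of the pooled signal, the number of members was 1161 to 1181, GC content 42% to 42.5%, exon length 326 to 340 bp, the GA repeat 0.689% to 1.02% and list genes 134 to 155. Thresholded members were from 0.229% to 0.859%, and the GA repeat share from 0.261% to 1.13%, under every alternative run. With a promoter from 300 bp upstream there were 1175 members, and from 1000 bp upstream 989. No paired analysis was possible because both replicates are in 1 group. Depth is unknown, so how far it limits the agreement of the lists could not be measured, and most members were not among the highest rows of both.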
